A study of Mus musculus with 5 samples.

Results

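Lin28a, Lin28b, Hmga1, Hmga2, Igf2bp1, Igf2bp2 and Igf2bp3 are RNA-binding and chromatin protein genes, several of which are known for high expression in embryonic tissues and low expression after birth, while Hmga1 and Igf2bp2 are also used later in life. All 7 were found by symbol among the 32285 genes of the files, and they were described in single cell RNA-seq of mouse penis and limbs. The penis group was 3 libraries of penis from mice at postnatal day 6 (P6), which per the study's methods were males from 2 litters with the prepuce removed. The limb group was 1 forelimb and 1 hindlimb library of embryos labelled e15, male per the same methods. The labels give the genotype of all 5 libraries as C57BL/6N, whereas the study's methods name C57BL/6J for its mice. The labels name no engineered allele and no agent. The same methods give 6 male embryos for the limbs, but not how they were divided over the 2 limb libraries or whether both libraries share embryos. Every limb library is embryonic and every penis library is postnatal, so age, tissue and library preparation cannot be told apart. The limb excess described here is therefore a difference between these 2 sets of libraries. The p-values rest only on the spread between libraries, which the tests estimate partly from all genes. In limb that spread is the difference between 1 forelimb and 1 hindlimb library.

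Lin28a and Lin28b encode RNA-binding proteins that block the maturation of let-7 microRNAs. Mature let-7 in turn represses messenger RNAs that carry its seed match in the 3′ UTR, Lin28 messages among them, so that the Lin28 proteins and let-7 oppose each other. Hmga1 and Hmga2 encode small chromatin proteins that bind AT-rich DNA, and Hmga2 is a classic let-7 target. Igf2bp1, Igf2bp2 and Igf2bp3 encode RNA-binding proteins that stabilise or localise client messages such as Igf2 and H19.

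The let-7 family is shown first because the match to its seed was searched in each member. RefSeq (GRCm38.p6) held 13 mouse loci whose mature microRNA carries the let-7 seed at bases 2 to 8, with 11 distinct mature sequences. A few of them are given with the seed in capitals.
let-7a: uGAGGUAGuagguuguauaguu
let-7g: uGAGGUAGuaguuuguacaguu
let-7i: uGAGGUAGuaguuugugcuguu
miR-98: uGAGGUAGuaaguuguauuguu

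The match to the seed, CTACCTC read on the strand of the message, was searched in the 3′ UTR of 1 GENCODE transcript per gene (GRCm38). It was present in 9.18% of 20659 genes and in all 7 members. Hmga2, Lin28b and Igf2bp1 each held 4 matches. Among genes whose UTR was of like length (0.8 to 1.2 times), 0.089% held as many as Hmga2, 0.157% as many as Lin28b and 0.178% as many as Igf2bp1. Lin28a held 2, and 2.06% of genes of like length held as many. Hmga1, Igf2bp2 and Igf2bp3 held 1 each, beside 8.05%, 12% and 13.2% of genes of like length. A match is a run of letters and not a shown site. The first match of each member is given with the match in capitals, an A after it included where present.
Lin28a, chr4:134005189-134005210, minus strand: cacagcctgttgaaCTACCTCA
Lin28b, chr10:45381022-45381043, minus strand: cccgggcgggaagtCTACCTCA
Hmga1, chr17:27563278-27563298, plus strand: cctctgttcacaaaCTACCTC
Hmga2, chr10:120364224-120364245, minus strand: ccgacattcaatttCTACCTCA
Igf2bp1, chr11:95961778-95961799, minus strand: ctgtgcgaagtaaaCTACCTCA
Igf2bp2, chr16:22059473-22059494, minus strand: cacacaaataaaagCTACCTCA
Igf2bp3, chr6:49086787-49086808, minus strand: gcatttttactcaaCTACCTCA

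Cells were given a type by markers, and each name means only that. A cell needed a unique molecular identifier (UMI) of at least 3 of 6 gate markers and a lead of 2 over other lists. Of 62152 kept cells, 35564 received a type, 54.96% to 60.4% of each library. Each library held 20 cells or more of 8 types, which were mesenchyme-like, chondrocyte-like, tendon-like, endothelium-like, mural-like, epithelium-like, macrophage-like and Schwann-like. Of 4 markers kept out of each gate, all 4 were over 2 times their median in the other types in every library, except 3 of 4 in tendon-like cells. Muscle-like cells were found in limb only. Kept cells of a library held medians of 8791.5 to 9909 UMIs in penis and 5358 and 6057 in limb, and pairs of libraries shared 9 to 124 barcodes. Limb cells were more often dividing, which is taken up below. Levels are UMIs of a gene per 1000000 UMIs of that type in a library (CPM), and the member genes are not compared with each other by level. Whether reads in introns were counted is not given in the sources used here, so a level of a long gene such as Hmga2, Lin28b or Igf2bp3 may hold unspliced as well as spliced RNA.

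Higher in limb was the direction in all 33 calls among the 39 pairs of member and cell type that passed the filter on low counts, and DESeq2 made 33 calls as well; no pair was lower in limb. Of these 39 pairs, 12 passed the filter only with the limb libraries, so that their direction was largely set by it, and 11 of the 12 were called. They were Lin28b in mesenchyme-like and endothelium-like cells, Hmga1 in chondrocyte-like and macrophage-like cells, and Hmga2 in tendon-like, endothelium-like and macrophage-like cells. The rest were Igf2bp1 in tendon-like, endothelium-like, macrophage-like and Schwann-like cells and Igf2bp2 in macrophage-like cells. Their values are given below as a description. The other 27 passed on the penis libraries alone, and 22 of them were called. A call needed an adjusted p under 0.01 and a log2 fold change over 1 in edgeR's quasi-likelihood test, adjusted by Benjamini-Hochberg over all genes. Among members that passed on the penis libraries alone, 5 of 5 were called in mesenchyme-like cells, where 12.5% of all genes were called higher in limb. The counts were 4 of 4 in chondrocyte-like (background 7.12%), 1 of 2 in tendon-like (5.82%) and 2 of 3 in endothelium-like cells (6.14%). They were 4 of 4 in mural-like (5.58%), 3 of 5 in epithelium-like (6.34%), 0 of 1 in macrophage-like (3.62%) and 3 of 3 in Schwann-like cells (6.92%). Beside the 0 members lower in limb, the shares of all genes called lower were 12.5%, 9.73%, 7.43%, 7.08%, 7.3%, 5.43%, 7.3% and 8.66% in these types in the same order. Hmga2 and the 3 Igf2bp genes passed the filter in all 8 types, Hmga1 in 5 and Lin28b in 2. For Hmga2 and the Igf2bp genes the limb libraries lay above every penis library in 32 of 32 pairs, 8 of them among the 12 above, beside shares of all genes tested of 37.1%, 34%, 33.5%, 29.5%, 28%, 30.4%, 30.5% and 31.8% in these types in the same order.

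**Figure D1:**
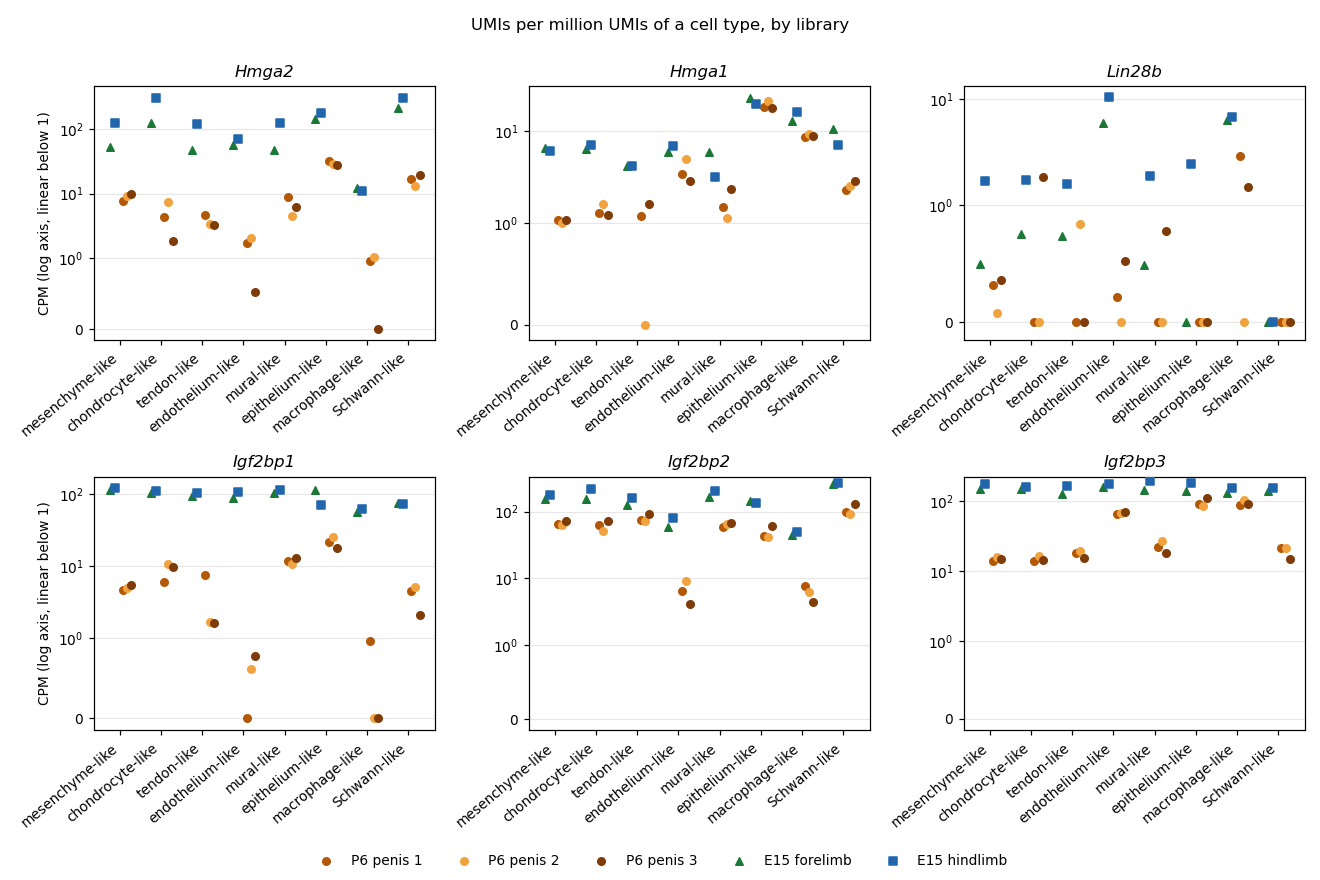
Levels of 6 members (CPM, log axis, linear below 1) for 8 cell types gated by markers, 1 point per library: 3 P6 penis libraries (circles), forelimb (triangles) and hindlimb (squares). Penis circles of Igf2bp3 sit near the limb points in epithelium-like and macrophage-like cells and far below them in mesenchyme-like cells.

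Lin28a, the family member of early embryos, was all but undetected. It had 2 UMIs in forelimb and 3 in hindlimb mesenchyme-like cells, 1 UMI in penis 3 mesenchyme-like cells and 1 in penis 3 chondrocyte-like cells. No other library and compared type had any, so no contrast could be read for this gene.

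Lin28b was rare everywhere, and its highest levels were in limb endothelium-like and macrophage-like cells. In endothelium-like cells it stood at 5.94 CPM in forelimb (18 UMIs) and 10.4 CPM in hindlimb (32 UMIs), against 0.212, 0 and 0.522 CPM in penis 1, 2 and 3 (1, 0 and 2 UMIs). The limb libraries were above all penis libraries, with a log2 fold change of 5.04 (SE 0.62, adjusted p = 2.47e-05, edgeR), in a pair that was tested only because of its limb level. With 3 UMIs in penis in all, the pooled ratio of 36.6 had a counting interval of 11.8 to 183. At 2000 UMIs per cell, 1.61% and 2.10% of limb endothelium-like cells would show a Lin28b UMI, against at most 0.199% in penis (unthinned 4.4% and 8.5% against at most 0.524%).

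In macrophage-like cells Lin28b was at 6.41 and 6.79 CPM in forelimb and hindlimb (28 and 30 UMIs) and at 2.89, 0 and 1.47 CPM in penis (3, 0 and 1 UMIs). The groups did not overlap, but the gene was too rare for the filter and was not tested there. The pooled ratio was 4.44, with a counting interval of 1.64 to 16.8. In mesenchyme-like cells Lin28b was at 0.499 and 1.68 CPM in limb (20 and 68 UMIs) and at 0.315, 0.0803 and 0.360 CPM in penis (8, 2 and 7 UMIs). That difference, also tested only because of the limb level, was called at the edge (log2 2.17, SE 0.61, adjusted p = 0.0093, edgeR) and rested on the hindlimb library. Without it the log2 fold change was 1.05 (adjusted p = 0.15), and the call was also lost without any one of the penis libraries (adjusted p 0.022 to 0.050). Schwann-like cells had no Lin28b UMI in any library, and in limb the order below macrophage-like cells (chondrocyte-like, epithelium-like, mural-like, tendon-like, mesenchyme-like) was one of overlapping neighbours.

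Hmga2, the chromatin protein of embryonic growth, was higher in limb in all 8 types. In tendon-like, endothelium-like and macrophage-like cells it passed the filter only with the limb libraries, which largely set that direction. In mesenchyme-like cells it was at 52.4 CPM in forelimb and 125 CPM in hindlimb, against 7.6, 9.07 and 9.76 CPM in the penis libraries. Even the lower limb library was far above every penis library (log2 3.37, SE 0.30, adjusted p = 4.56e-06, edgeR). In chondrocyte-like cells it was at 127 and 308 CPM in limb and at 4.28, 7.32 and 1.85 CPM in penis, the last from 3 UMIs. There the penis mean was 2.06% of the limb mean, the largest log2 fold change of Hmga2 (5.48, SE 0.46, adjusted p = 2.17e-06, edgeR). The 4 chondrocyte markers kept out of the gate summed to 1658 to 2066 CPM in penis and to 4985 and 5270 CPM in limb chondrocyte-like cells. Of 8 mesenchyme genes, 5 were called lower in limb in these cells and 0 higher, beside 9.73% of all genes lower, and their part in the result was not tested.

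Schwann-like cells held the highest Hmga2 of the limb, 215 and 312 CPM, overlapping the chondrocyte-like range, and 17.1, 13.3 and 19.3 CPM in penis. Epithelium-like cells held the most in penis, 32.8, 28.7 and 28 CPM, above the next type in every library, and 144 and 179 CPM in limb. The smallest log2 fold change of Hmga2 was in these epithelium-like cells (2.36, SE 0.16, adjusted p = 7.43e-09, edgeR). Macrophage-like cells held the least, 12.4 and 11.1 CPM in limb and 0.962, 1.03 and 0 CPM in penis (1, 1 and 0 UMIs). Their call (log2 3.83, adjusted p = 0.00041) was lost without either limb library, with adjusted p of 0.018 and 0.011. The log2 fold changes of the other types were 4.35 in tendon-like, 5.43 in endothelium-like, 3.67 in mural-like and 3.97 in Schwann-like cells. Those of macrophage-like, tendon-like and endothelium-like cells are a description, from pairs that passed the filter only with the limb libraries.

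As a share of cells thinned to 2000 UMIs, 19.3% and 37.1% of limb chondrocyte-like cells would show Hmga2, against 0.292% to 1.36% in penis. Unthinned shares were 36.7% and 59.5% against 2.04% to 3.55%. Limb macrophage-like cells, the lowest type, stood at 1.57% and 1.56% thinned, above the penis chondrocyte-like share.

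Hmga1, the relative of Hmga2 that is broadly used in dividing cells, differed less and was at about its limb level in penis epithelium-like cells. It has a near-identical intronless copy, Hmga1b, to which reads may be lost, so its levels are uncertain; Hmga1b itself had at most 10 UMIs in any compared type and library. In mesenchyme-like cells Hmga1 was at 6.51 and 6.12 CPM in limb and at 1.06, 1.00 and 1.08 CPM in penis (log2 2.62, SE 0.16, adjusted p = 2.90e-07, edgeR). In chondrocyte-like cells it was also called (log2 2.25, SE 0.36, adjusted p = 0.00035), on 9 penis UMIs in all. That pair passed the filter only with the limb libraries.

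Epithelium-like cells stood highest for Hmga1 in both tissues and showed no call. They held 23.3 and 19.7 CPM in limb and 18.5, 21.3 and 17.8 CPM in penis, groups that overlapped (log2 0.07, SE 0.24, adjusted p = 0.86, edgeR). The pooled ratio was 1.11, with a counting interval of 0.790 to 1.52. Macrophage-like cells came second in both tissues, with 13.1 and 16.3 CPM in limb and 8.66, 9.28 and 8.80 CPM in penis (log2 0.66, SE 0.31, adjusted p = 0.12). Endothelium-like cells held 5.94 and 6.85 CPM in limb and 3.40, 4.95 and 2.87 CPM in penis (log2 0.79, SE 0.35, adjusted p = 0.082). Neither of these was called, although their groups did not overlap.

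Igf2bp1, an RNA-binding protein of embryonic tissues, was at similar levels in the connective tissue types of the limb and nearly absent from some penis types. In mesenchyme-like cells it was at 117 and 122 CPM in limb and at 4.65, 5.10 and 5.50 CPM in penis. The limb libraries differed from each other by far less than from the penis libraries (log2 4.59, SE 0.08, adjusted p = 2.36e-10, edgeR). In endothelium-like cells it was at 88.1 and 108 CPM in limb and at 0, 0.619 and 0.783 CPM in penis (0, 3 and 3 UMIs). The fitted log2 fold change was 7.72 (SE 0.28, adjusted p = 3.13e-10), in a pair that passed the filter only with the limb libraries, and the pooled ratio of 219 had a counting interval of 100.1 to 600. In macrophage-like cells limb held 57.5 and 62.5 CPM and penis a single UMI in 285 cells, a pooled ratio of 161 with a counting interval of 28.8 to 6387.

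Epithelium-like cells held the most Igf2bp1 in penis, 21.6, 26.0 and 18.2 CPM, above mural-like cells, the next type. With 115 and 70.4 CPM in limb, they gave the smallest log2 fold change of Igf2bp1 (1.97, SE 0.21, adjusted p = 2.68e-06, edgeR). In the other types the log2 fold change of Igf2bp1 was 3.57 in chondrocyte-like, 4.54 in tendon-like, 3.23 in mural-like and 4.12 in Schwann-like cells. The tendon-like and Schwann-like pairs, like the macrophage-like one, passed the filter only with the limb libraries. The tendon-like penis values were uneven, 7.69, 1.68 and 1.61 CPM (13, 2 and 2 UMIs).

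Igf2bp2, the family member that persists in adult tissues, had the smallest log2 fold change of the members tested in mesenchyme-like, chondrocyte-like, tendon-like, mural-like and Schwann-like cells. In mesenchyme-like cells it was at 154 and 178 CPM in limb and at 66.4, 63.6 and 71.8 CPM in penis, so that the penis mean was 40.5% of the limb mean (log2 1.34, SE 0.07, adjusted p = 1.12e-07, edgeR). Log2 fold changes of 1.29 to 1.58 were found in chondrocyte-like, mural-like, epithelium-like and Schwann-like cells, all called. In tendon-like cells limb held 128 and 162 CPM and penis 76.3, 71.4 and 91.2 CPM, without overlap and short of the fold limit (log2 0.80, SE 0.13, adjusted p = 0.00041). Penis endothelium-like cells (6.58, 9.08 and 4.18 CPM) and macrophage-like cells (7.70, 6.19 and 4.4 CPM) stood far below the other penis types. In limb these types held 59.4 and 81.6 CPM and 44.0 and 48.9 CPM, with log2 fold changes of 3.42 (SE 0.22, adjusted p = 4.26e-08) and 2.81 (SE 0.26, adjusted p = 3.75e-06). The macrophage-like pair passed the filter only with the limb libraries.

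Igf2bp3 was the most even member over the 8 compared types in limb and split the penis types into 2 levels. Across these 8 limb types its means ran from 142 to 170 CPM and each type overlapped the next. Muscle-like cells, found in limb only, stood above them at 237 CPM in forelimb and 272 CPM in hindlimb. In penis, mesenchyme-like cells held 13.9, 16.1 and 14.9 CPM against 149 and 178 CPM in limb (log2 3.48, SE 0.09, adjusted p = 1.65e-09, edgeR). Chondrocyte-like, tendon-like, mural-like and Schwann-like penis cells had means of 15.0 to 22.3 CPM, with log2 fold changes of 2.85 to 3.34.

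Penis endothelium-like, epithelium-like and macrophage-like cells kept several times that level of Igf2bp3. Macrophage-like cells held 86.6, 103 and 91.0 CPM in penis and 132 and 153 CPM in limb (log2 0.55, SE 0.12, adjusted p = 0.0037, edgeR). Epithelium-like cells held 90.4, 85.1 and 112 CPM in penis and 139 and 179 CPM in limb (log2 0.67, SE 0.15, adjusted p = 0.0026). The limb libraries were above all penis libraries in both, and both fell short of the fold limit. The macrophage-like difference was called when cells were thinned to 2000 UMIs before the gate (log2 1.22, adjusted p = 0.0077, edgeR). That setting left 65, 64 and 46 macrophage-like cells in penis 1, 2 and 3, with 130000, 128000 and 92000 UMIs. Whether the pair passed the filter there on the penis libraries alone was not checked, so its value is a description. Endothelium-like cells held 64.5, 66.9 and 70.5 CPM in penis and 160 and 176 CPM in limb, and were called (log2 1.36, SE 0.09, adjusted p = 4.53e-08). At 2000 UMIs per cell, 14.9% to 18.4% of penis macrophage-like cells would show Igf2bp3, against 2.84% to 3.1% of penis mesenchyme-like cells. Unthinned, these shares were 43.8% to 50.7% and 11% to 12.5%.

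**Figure D2:**
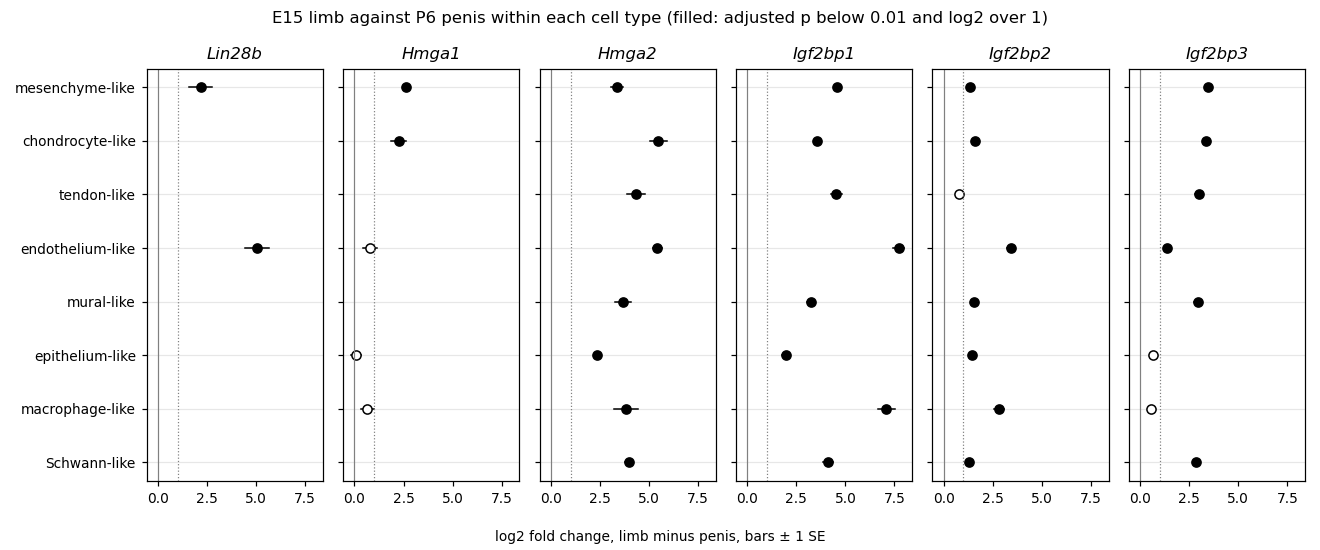
Log2 fold change, limb minus penis, with 1 SE either way, for each member (panel) and cell type (row) that could be tested, on one axis range. Filled points passed both limits, and the 6 open points are Igf2bp2 in tendon-like, Hmga1 in endothelium-like, epithelium-like and macrophage-like, and Igf2bp3 in epithelium-like and macrophage-like cells.

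Free RNA from other cells can add to a level. The median of 8 mesenchyme genes, such as Col1a1 and Dcn, was 2.16% to 9.76% of their mesenchyme-like level in endothelium-like, epithelium-like and macrophage-like cells of the same library. Igf2bp3 in these penis types stood at 415.5% to 754% of its own mesenchyme-like level, and Hmga1 at 266% to 2120%. Igf2bp1 in limb macrophage-like cells was 49.1% and 51.1% of the mesenchyme-like level. Hmga2 there was 23.6% in forelimb and 8.85% in hindlimb, beside reporter medians of 8% and 5.59%. The 8 reporters ranged from 6.17% to 11.5% in forelimb and from 3.76% to 8.88% in hindlimb macrophage-like cells. Hindlimb Hmga2 thus lay inside the reporter range, and what free RNA adds to it was not tested. Hmga2 and Igf2bp2 in penis endothelium-like and macrophage-like cells were at 0% to 22.8% and 5.82% to 14.3%, and what free RNA adds there was not tested. In Schwann-like cells the reporters were at 19.6% to 33.6%, a higher level than in those types. Of the 8 genes, 5 were called lower in limb in chondrocyte-like, 6 in tendon-like and 4 in Schwann-like cells, and 0 higher, where 9.73%, 7.43% and 8.66% of all genes were lower. Their summed level was 15918 to 17877 CPM in penis and 5706 and 6530 CPM in limb chondrocyte-like cells. In tendon-like cells it was 59352 to 62414 CPM against 17013 and 19286 CPM, and in Schwann-like cells 9518 to 10347 CPM against 3262 and 3659 CPM. In mural-like cells 2 were called lower, beside 7.3% of all genes, at a summed 23710 to 31749 CPM against 13670 and 16672 CPM. In endothelium-like, epithelium-like and macrophage-like cells 1, 2 and 2 of the 8 were called higher and 0 lower, beside 6.14%, 6.34% and 3.62% of all genes higher. In mesenchyme-like cells 1 was higher and 2 lower, beside 12.5% of all genes each way. Their part in the contrasts of the members in these types was not tested.

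The 4 markers kept out of each gate also separated the tissues without overlap in all 8 types. They were higher in limb in chondrocyte-like cells, as given above, and in Schwann-like cells, with a summed 1797 to 1935 CPM in penis against 2503 and 2283 CPM in forelimb and hindlimb. They were lower in limb in the other types. Tendon-like cells held 25611 to 25761 CPM in penis against 7634 and 6414 CPM in limb, mural-like cells 2296 to 2918 CPM against 1383 and 1016 CPM, and macrophage-like cells 11358 to 13264 CPM against 6887 and 6755 CPM. Epithelium-like cells held 5155 to 5556 CPM against 2860 and 3401 CPM, endothelium-like cells 2427 to 2754 CPM against 1713 and 1872 CPM, and mesenchyme-like cells 14742 to 15643 CPM against 9484 and 8891 CPM. How these levels bear on the members' contrasts was not tested.

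The contrast was then compared between cell types, each against mesenchyme-like cells, in edgeR by the interaction of type and tissue, blocked by library. Of 41 pairs tested, 13 passed the limits. Background shares of all genes with a larger and with a smaller limb excess were 3.98% and 3.52% in chondrocyte-like, 3.27% and 4.82% in endothelium-like, 0.999% and 1.37% in mural-like, 4.82% and 4.15% in epithelium-like and 4.36% and 3.82% in macrophage-like cells. For Igf2bp3 the limb excess was smaller by log2 2.18 in endothelium-like (interaction -2.18, SE 0.10, adjusted p = 3.39e-08), 2.82 in epithelium-like (-2.82, SE 0.15, adjusted p = 5.88e-18) and 2.80 in macrophage-like cells (-2.80, SE 0.14, adjusted p = 3.19e-13). The other Igf2bp genes went the opposite way in endothelium-like cells, where the excess was larger for Igf2bp1 (3.13, SE 0.45, adjusted p = 0.00035) and Igf2bp2 (2.00, SE 0.21, adjusted p = 3.41e-05). Igf2bp1 in endothelium-like cells rested on 0, 3 and 3 penis UMIs. It had passed the limb against penis filter only with the limb libraries, so its interaction is given as a description.

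In macrophage-like cells Igf2bp2 also had a larger excess (1.61, SE 0.30, adjusted p = 0.00026). Igf2bp1 did not pass there (2.78, SE 0.98, adjusted p = 0.046). The excess of Igf2bp1 was smaller in epithelium-like (-2.64, SE 0.22, adjusted p = 2.56e-12) and mural-like cells (-1.32, SE 0.22, adjusted p = 0.00052). Hmga2 had a larger excess in chondrocyte-like (2.16, SE 0.24, adjusted p = 2.64e-06) and endothelium-like cells (2.09, SE 0.49, adjusted p = 0.0084). Hmga1 had a smaller one in endothelium-like (-1.88, SE 0.38, adjusted p = 0.0037), epithelium-like (-2.54, SE 0.36, adjusted p = 8.45e-07) and macrophage-like cells (-1.82, SE 0.45, adjusted p = 0.0046). Hmga2 in endothelium-like and Hmga1 and Igf2bp2 in macrophage-like cells had passed the limb against penis filter only with the limb libraries. Their interactions are given as a description. The endothelium-like call of Hmga2 was lost without any one penis library (adjusted p 0.015 to 0.047), and that of Hmga1 without penis 2, forelimb or hindlimb (adjusted p 0.023, 0.035 and 0.016). The macrophage-like call of Hmga1 was lost without any one library (adjusted p 0.013 to 0.067). No Lin28b interaction passed, and no member did in tendon-like or Schwann-like cells at the fold limit (background 2.22% and 2.12%, and 4.37% and 5.52%).

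**Figure D3:**
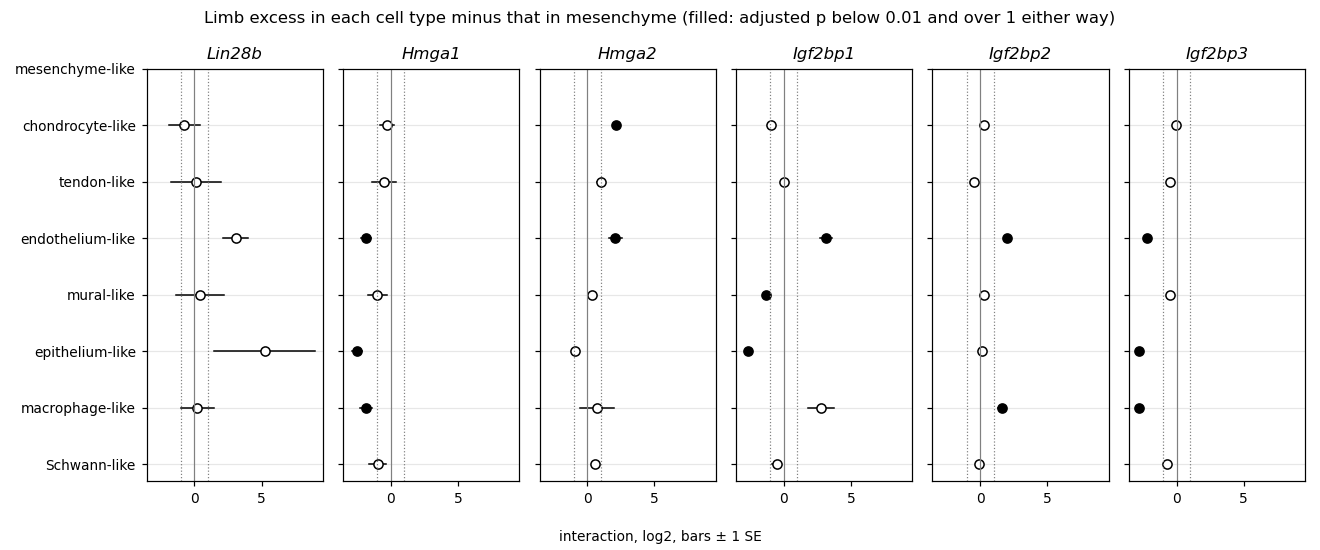
Limb excess of each cell type minus that of mesenchyme-like cells, log2 with 1 SE either way, by member (panel). Filled points passed an adjusted p of 0.01 and a size of 1 (dotted lines); in endothelium-like cells Igf2bp1 and Igf2bp2 lie to the right of 0 and Igf2bp3 to the left.

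Forelimb and hindlimb were 1 library each, so their difference has no replicate check, and intervals cover counting error only. Hmga2 showed the clearest difference. Its hindlimb level was 2.39 times that of forelimb in mesenchyme-like (counting interval 2.27 to 2.52), 2.43 times in chondrocyte-like (2.30 to 2.56), 2.48 times in tendon-like (2.09 to 2.94) and 2.62 times in mural-like cells (2.05 to 3.37). In the other types the ratio was nearer 1, at 1.22 in endothelium-like (0.996 to 1.5), 1.24 in epithelium-like (1.01 to 1.53), 0.897 in macrophage-like (0.597 to 1.35) and 1.45 in Schwann-like cells (1.21 to 1.73). Muscle-like cells, of limb only, gave 1.60 (1.44 to 1.79).

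Lin28b in mesenchyme-like cells was 3.36 times higher in hindlimb (2.02 to 5.85), on 20 and 68 UMIs, and 2.27 times in chondrocyte-like cells (1.09 to 5.17). The Igf2bp genes differed less, from 0.936 to 1.38 times for Igf2bp2 and 1.07 to 1.35 times for Igf2bp3 over the 8 types. Igf2bp1 ran from 0.613 times in epithelium-like cells (0.461 to 0.813) to 1.23 times in endothelium-like cells. For Hmga1 no interval lay wholly on one side of 1.

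**Figure D4:**
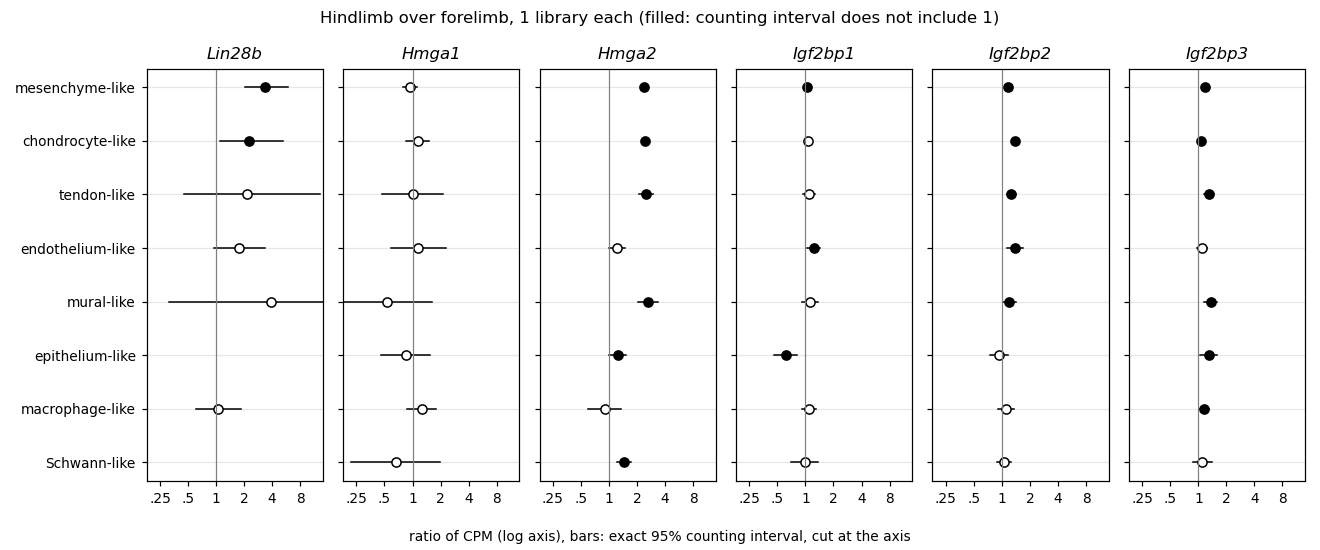
Hindlimb level over forelimb level (ratio of CPM, log axis) for each member and cell type, with the exact 95% counting interval, drawn to the edge of the axis where it runs further. Points of Hmga2 in mesenchyme-like, chondrocyte-like, tendon-like and mural-like cells lie between 2.39 and 2.62.

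Cell division differed between the tissues. In mesenchyme-like cells 3.79% to 4.88% of penis cells and 19.7% and 20.2% of limb cells had UMIs of at least 3 of 8 division genes, and in every other type the limb shares were also above all penis shares. Of 17 cell division genes, 14 were higher in limb in mesenchyme-like cells, beside 12.5% of all genes, among them Birc5 (log2 2.72), Ccna2 (2.19) and Cdk1 (2.06). In the other types the number ran from 1 of 17 in chondrocyte-like cells and 5 in endothelium-like cells to 12 in mural-like cells, beside 3.62% to 7.12% of all genes, and 0 were lower in any type. Restricted to mesenchyme-like cells without a UMI of the 8 genes, the log2 fold changes of the members were 2.45 for Hmga1, 3.16 for Hmga2, 4.65 for Igf2bp1, 1.36 for Igf2bp2 and 3.50 for Igf2bp3, all called, and Lin28b was below the count filter. The share of all genes called in this restricted fit was not counted. Mesenchyme-like cells held medians of 5212 and 5865 UMIs in limb and 8840 to 9915 in penis. A dividing cell of low depth can lack such a UMI, and the effect of depth on this restriction was not tested.

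Within mesenchyme-like cells, dividing cells were compared with non-dividing cells of the same library. Hmga2 was at 66.3 against 47.0 CPM in forelimb, 155 against 107 CPM in hindlimb, and 9.83 against 6.93, 5.96 against 9.04 and 10.5 against 10.7 CPM in the penis libraries. Dividing cells were thus higher in both limb libraries and in 1 of 3 penis libraries, where they held only 12, 7 and 13 Hmga2 UMIs. Of 6 members tested, 0 passed the limits in edgeR, the only tool run here, and Hmga2 alone had an unadjusted p under 0.05 (log2 0.41, SE 0.11, adjusted p = 0.018 by edgeR), as did 37.6% of all genes. Over all genes 3.91% passed the limits as higher and 0.583% as lower in dividing cells. For the difference between tissues in this step 0 of 6 passed either, with 3 at an unadjusted p under 0.05 (Hmga1, Hmga2 and Igf2bp1), beside 16.1% of all genes. Hmga1 had 1, 0 and 0 UMIs in the dividing cells of penis 1, 2 and 3. The limits were passed by 0.334% of all genes as higher and 1.19% as lower.

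Of 7 measured transcripts that span let-7 hairpins, 3 were called lower in limb in most types, where 5.43% to 12.5% of all genes were, and 4 were called in none. Mature microRNAs are not measured by these libraries, and a host's polyadenylated RNA is not a level of let-7. Of 4 host transcripts listed, Mir99ahg and Mir100hg were tested, and both were lower in limb in mesenchyme-like cells, where 12.5% of all genes were lower and the median of all genes was -0.01. Mir99ahg, host of let-7c-1, was at 438 and 684 CPM in forelimb and hindlimb and at 1608, 1565 and 1762 CPM in penis (log2 -1.52, SE 0.15, adjusted p = 1.19e-05, edgeR). Mir100hg, host of let-7a-2, was at 129 and 168 CPM in limb and at 479, 451 and 525 CPM in penis (log2 -1.67, SE 0.10, adjusted p = 3.90e-07). Penis libraries were above both limb libraries for each.

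All measured genes that span a let-7 family hairpin on its strand were then taken from the annotation, a choice made after values were seen. There were 7 such genes for 11 hairpins. Lncppara, which spans let-7b and let-7c-2, was at 14.4 and 14.1 CPM in limb and at 72.0, 64.1 and 76.0 CPM in penis mesenchyme-like cells (log2 -2.28, SE 0.08, adjusted p = 7.24e-09). It was lower in limb in 7 of 7 types tested, Mir100hg in 7 of 8 and Mir99ahg in 6 of 8, beside 5.43% to 12.5% of all genes lower by type. In Schwann-like cells Lncppara was at 4.18 and 2.00 CPM in limb, below the filter's limit of 7.15 CPM. It passed there only with the penis libraries (41.0, 33.2 and 38.6 CPM), which largely set that direction. Mir100hg and Mir99ahg were not called in macrophage-like cells (log2 -0.36 and -0.41), and Mir99ahg was not called in Schwann-like cells (-0.23). The other hosts, 6720427I07Rik, Huwe1, Spaca6 and Wdr82, were called in no type, with log2 fold changes of -0.51 to 0.49 over the types tested.

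**Figure D5:**
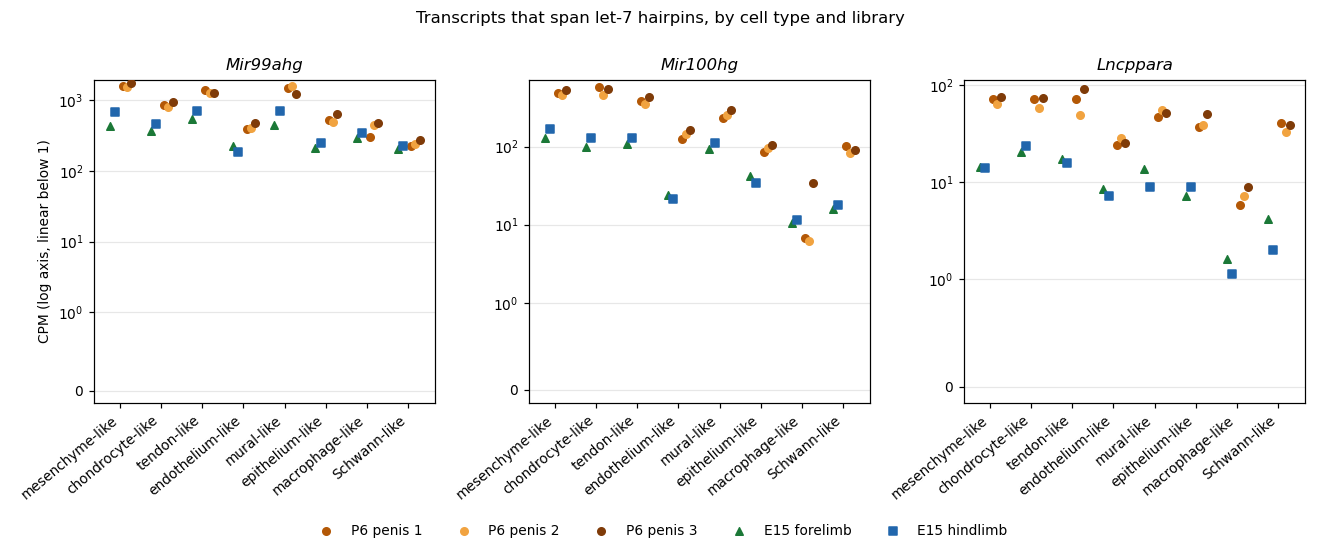
Levels (CPM, log axis, linear below 1) of 3 transcripts that span let-7 hairpins, by cell type and library, with symbols as for the members. Penis circles lie above the limb points in all types but macrophage-like cells, where those of Mir99ahg overlap them and 2 of 3 of Mir100hg lie below both; in Schwann-like cells those of Mir99ahg lie close to them.

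Genes that process or degrade let-7 were listed as a group. Of 14 tested in mesenchyme-like cells, 1 was higher in limb (Ago2, 151 and 162 CPM against 78.6, 72.9 and 85.3 CPM, log2 1.02) and 1 lower (Ago4, 7.38 and 7.38 CPM against 17.0, 16.1 and 19.2 CPM, log2 -1.20), where 12.5% of all genes were higher and 12.5% lower. Both encode Argonaute proteins, which carry microRNAs. The median over the 14 was 0.09. Drosha, Dgcr8 and Dicer1, which take part in the cutting of microRNA precursors, had log2 fold changes of 0.04, 0.13 and 0.13.

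Other messages known as let-7 targets were partly higher in limb. Of 25 tested in mesenchyme-like cells, 6 were higher and 0 lower, with a median of 0.74 beside -0.01 over all genes, of which 12.5% were higher. Mycn, a growth transcription factor, was at 6.98 and 6.37 CPM in limb and 1.18, 1.04 and 1.39 CPM in penis (log2 2.51). Thbs1, a matrix glycoprotein, was at 152 and 149 CPM in limb and 29.8, 35.9 and 37.8 CPM in penis (log2 2.16). Trim71, an embryonic RNA-binding protein, was at 4.64 and 5.28 CPM in limb and 1.38, 1.16 and 1.80 CPM in penis (log2 1.83). Cell cycle genes are on this list too, and the limb held more dividing cells. In the other types 22 to 25 targets were tested, of which 0 to 7 were higher and 0 to 2 lower, beside 3.62% to 7.12% of all genes higher and 5.43% to 9.73% lower.

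Of 8 known Igf2bp client RNAs, 3 were higher in limb in mesenchyme-like cells and 0 lower, with a median of 0.24, beside 12.5% of all genes higher and a median of -0.01. Igf2, the growth factor for which the family is named, was at 835 and 670 CPM in limb and at 274, 309 and 283 CPM in penis (log2 1.41). H19, the noncoding RNA of the same imprinted locus, was at 891 and 860 CPM in limb and 279, 330 and 292 CPM in penis (log2 1.57). Cd44, a hyaluronan receptor, was at 286 and 226 CPM in limb and 54.6, 59.7 and 65.9 CPM in penis (log2 2.13). For all 3 both limb libraries were above every penis library. In the other types 1 to 3 of the 8 were higher and 0 to 3 lower, with medians of -0.26 to 0.25, beside 3.62% to 7.12% of all genes higher and 5.43% to 9.73% lower. Schwann-like cells had 2 higher and 3 lower, and mural-like cells had 3 higher and 2 lower. Cd44 was called lower in limb in Schwann-like cells (log2 -1.16) and had a log2 fold change of -0.89, not called, in chondrocyte-like cells.

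The genes whose pattern was most like each member were ranked by Pearson correlation of log2(CPM + 1) over 43 sums of type and library with at least 20 cells, among 16814 genes that reached 5 CPM. The points share libraries and the limb against penis difference, so the values are a description. Hmga2 was most like Bex4 (r = 0.901), Igf2bp1 (0.885) and Magoh (0.854). Igf2bp1 was most like Npm1 (0.894), Ipo5 (0.888) and Hmga2 (0.885), so Hmga2 and Igf2bp1 were among each other's nearest genes over both tissues. Igf2bp2 was most like Eprs (0.890), Adgrl3 (0.886) and Oxct1 (0.880), and Igf2bp3 most like G3bp1 (0.899), Yeats4 (0.893) and Eif4a1 (0.888). Hmga1 was most like Lsm4 (0.865), Shmt1 (0.864) and Rbbp8 (0.847), and Lin28b had lower values (Ranbp2, 0.717; 1810020O05Rik, 0.703; Noct, 0.697). Lin28a was too rare to be ranked.

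Within the 24 penis sums alone, Igf2bp3 ran with Hmga1 (r = 0.862) and against Igf2bp2 (r = -0.752). In the 19 limb sums these were 0.370 and 0.027. Hmga2 and Igf2bp2 ran together in both, at 0.705 in penis and 0.830 in limb. Hmga2 and Igf2bp1 were at 0.756 in penis and 0.354 in limb. Each type enters once per library, so the sums are not independent and these values too are a description. The limb sums include muscle-like cells and a forelimb osteoblast-like sum of 20 cells, types that were not compared.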

How the data were processed

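Single cell RNA-seq of 3 P6 penis, 1 forelimb and 1 hindlimb library was used. Per the submitters' processing notes and the study's methods, the authors ran Cell Ranger 7.0.0 on mm10. The deposited matrices hold whole UMI counts of each gene in each called barcode, before the authors' filtering and normalization. Whether introns were counted is not given in the sources used here; if they were, levels of long genes such as Hmga2, Lin28b and Mir99ahg include intronic reads. The ChIP-seq of the study was not analysed here.

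Barcodes were kept with the study's limits, read as genes per cell (500 to 6000 in penis, 100 to 9000 in forelimb, 100 to 9500 in hindlimb), with mitochondrial limits of 5% and 10% and log10 genes per log10 UMI of at least 0.8. Kept cells held 51529854 to 148752710 UMIs per library. A cell was given a type by at least 3 of 6 markers and a lead of 2 over other lists, except that the mesenchyme list did not compete with chondrocyte, osteoblast, tendon, mural and muscle lists. A mesenchyme-like cell could hold at most 1 marker of any other list. No doublet caller was run, and cells that did not meet these rules stayed untyped. Osteoblast-like, erythroid-like and muscle-like cells had under 20 cells in some library and were not compared.

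Counts were summed per library and type, and limb was compared with penis in edgeR 4.0.16 (limma 3.58.1, R 4.3.3): TMM, filterByExpr, quasi-likelihood test, Benjamini-Hochberg over all genes, with limits of 0.01 and log2 1 as in the study. Each SE was derived from the test as the size of the log2 fold change divided by the root of its F. On counts simulated for the mesenchyme-like comparison over 18390 genes, edgeR recovered 97% of changes of log2 2 and 100% of log2 3 with 0 false calls. All genes were simulated with a single common dispersion and no difference between forelimb and hindlimb. The simulation therefore does not give the error rate of the real contrasts. DESeq2 1.42.0 was an alternative. Intervals are exact 95% Poisson or binomial intervals and cover counting error only. Shares were also taken as the expected share after thinning to 2000 UMIs, leaving out shallower cells.

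Named genes were the members, in each list the 3 genes called in mesenchyme-like cells with the largest change, and the 3 genes most like each member. The members and lists were chosen with earlier results of these data known. Alternatives were DESeq2, its size factors, no count filter, other gates and cell filters, and leaving out each library. Seed matches used GENCODE transcripts of GRCm38, the build of mm10. Python 3.11.15, numpy 2.4.6, scipy 1.17.1 and pandas 2.3.3 were used.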

Additional observations from a re-analysis of the deposited data

Results flagged for a closer look

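In 13 cases a difference between cell types stood out because the limb against penis contrast of a member differed from that in mesenchyme-like cells by an interaction test (edgeR, library as a block, log2, n = 5 libraries). In endothelium-like cells these were -1.88 for Hmga1, 2.09 for Hmga2, 3.13 for Igf2bp1, 2.00 for Igf2bp2 and -2.18 for Igf2bp3. In epithelium-like cells they were -2.54 for Hmga1, -2.64 for Igf2bp1 and -2.82 for Igf2bp3. In macrophage-like cells they were -1.82 for Hmga1, 1.61 for Igf2bp2 and -2.80 for Igf2bp3. The others were 2.16 for Hmga2 in chondrocyte-like and -1.32 for Igf2bp1 in mural-like cells. Hmga2 and Igf2bp1 in endothelium-like and Hmga1 and Igf2bp2 in macrophage-like cells had passed the limb against penis filter only with the limb libraries. Groups of 2 and 3 libraries are too small to look for outlying samples.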

How the results depend on the processing

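Of 445 recomputed limb against penis values of a member, 433 kept their direction and their side of the limits, 8 lost the call, 1 gained it and 3 changed sign. Of 39 pairs, 33 were called with DESeq2, with its size factors and with all deposited barcodes, 32 without the count filter, 31 of 37 with 4 gate markers, and 31 or 32 when a library was left out. In cells without a UMI of a division gene 29 of 33 testable pairs were called. The share of all genes called was not counted under these alternatives. These counts pool in the 12 pairs of the main fit that passed the filter only with the limb libraries, 11 of them called. Their direction was largely set by the filter, and their part in each alternative was not counted. In cells thinned to 2000 UMIs 22 of 24 pairs were called, and fewer members passed the count filter. The count of members higher in limb was 1 of 2 in tendon-like cells and 0 in mural-like cells, where none could be tested. It was 1 of 1 in macrophage-like cells (Igf2bp3, 1.22), on 65, 64 and 46 penis cells. Whether that pair passed the filter on the penis libraries alone was not checked. Pairs below 20 cells or the filter gave no value. Lin28b in mesenchyme-like cells lost its call without the filter (2.17) and with 4 gate markers (1.95). Hmga1 in epithelium-like cells, not called, was -0.19 in non-dividing cells. The cause of these changes was not tested, other than the fewer members that could be tested in thinned cells.

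Leaving out each library, the number of members with an unequal limb excess was 1 to 2 in chondrocyte-like and 3 to 4 in endothelium-like cells, against 1 and 5 with all libraries. Among values that were never called, the sign changed for Hmga1 in epithelium-like cells (-0.044 to 0.20). It also changed for the interactions of Lin28b in chondrocyte-like (-1.70 to 5.22), tendon-like (-0.87 to 5.66), mural-like (-0.57 to 4.93) and macrophage-like cells (-0.36 to 1.29), of Igf2bp1 in tendon-like cells (-0.39 to 1.38), and of Igf2bp2 in epithelium-like (-0.014 to 0.25) and Schwann-like cells (-0.20 to 0.066). Losses of a call were those of Lin28b in mesenchyme-like cells (1.05 to 2.78) and Hmga2 in macrophage-like cells (3.73 to 3.91), and of the interactions of Hmga1 and Hmga2 in endothelium-like and Hmga1 in macrophage-like cells. The interactions of Igf2bp1 in chondrocyte-like (to -1.15) and Hmga2 in epithelium-like cells (to -1.36) were called without some single libraries. Where a limb library was left out, the lone one was taken to vary like the penis libraries.

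The 35 recomputed values of dividing against non-dividing cells kept their direction and stayed uncalled. Depth limits Lin28a, Lin28b and Hmga1 most, which had under 10 penis UMIs in several types.

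No paired analysis was possible because the limb and penis groups share fewer than 2 replicate numbers.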
